A study of Mus musculus with 9 samples.

Results

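Lung gene expression was compared between 3 mice with a pulmonary fibrosis model and 3 normal mice. Every gene with an FPKM of at least 1 in at least 3 of these 6 libraries was tested, which took in 14135 of the 25526 names in the deposited table. FPKM counts reads per length of transcript and size of library. The series studied an inhaled polypeptide nanozyme for this disease, and 3 nanozyme-treated mice bring its libraries to 9. The labels give the tissue as lung and the groups as a pulmonary fibrosis model and normal. The strain, age and sex of the mice, the agent that induced fibrosis, its dose, the time of sampling and any sham treatment of the normal mice are not given in the sources used here. The labels' protocols name 3 mice per group, and each library was counted as 1 animal, which the files do not show directly. The surfactant gene Sftpc and the club cell gene Scgb1a1, which mark lung, were at 5138 FPKM or more in every library.

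In pulmonary fibrosis, injury of the epithelium draws leukocytes into the lung and leads fibroblasts to deposit collagen and other matrix. Macrophages and T cells exchange cytokines and interferons with the resident cells, and transforming growth factor beta drives fibroblasts to become contractile myofibroblasts. Most mouse models begin with an inflammatory phase that gives way to matrix deposition, so the gene groups below are ordered from inflammatory signals through leukocytes and dividing cells to matrix and resident cells.

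1 normal library stood apart from the rest in how it relates to its group. Normal replicate 3 lay between normal replicates 1 and 2 at 50.3% of genes with a mean FPKM of 1 to 5, and at 73.9% of genes with a mean of 100 or more. Normal replicates 1 and 2 lay between the others at 12.6% to 24.9% of genes, and the model libraries at 14.7% to 44.1%. At the 404 genes with a mean of at least 5 FPKM where normal replicates 1 and 2 differed at least 2-fold, the third library lay at 0.471 of the way from the lower to the higher value (quartiles 0.394 and 0.617). Nppa, the atrial natriuretic peptide gene, is an example, at 70.2, 0.122 and 35.1 FPKM in normal replicates 1 to 3. In 69.3% of those 404 genes the value fell in the middle of that interval, between 0.25 and 0.75 of the way, against 7.57% to 35.9% for the other libraries in the same measure. The cause was not tested, and whether this library is an animal independent of the other two cannot be told from these files. Where it is not, n is less than 3 for normal lung throughout. A library that sits near the mean of the other two narrows the spread of the normal group, so most counts below are also given without normal replicate 3.

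**Figure D1:**
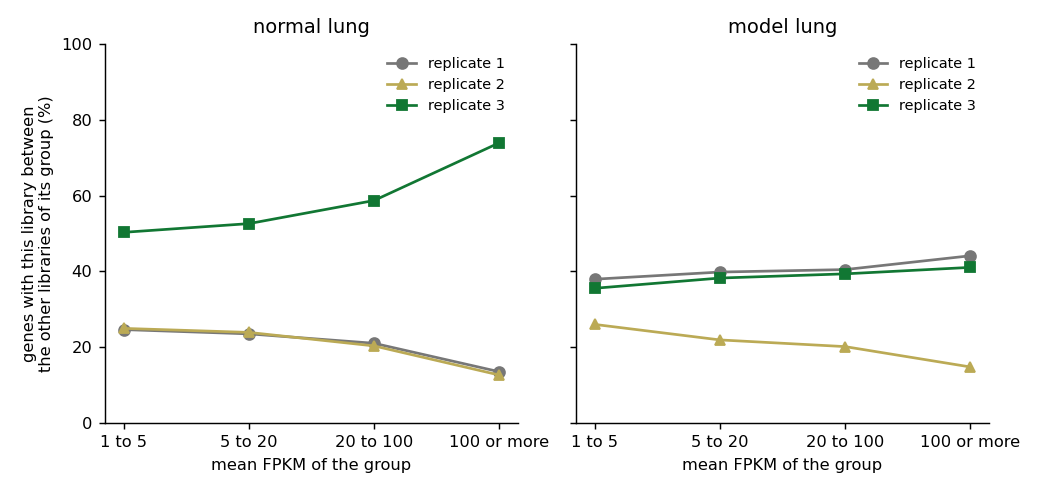
Percent of genes at which each library lies between the other libraries of its group (y axis), by the group's mean FPKM (x axis), for normal (left) and model (right) lung. Normal replicate 3 rises from 50.3% to 73.9%, while every other library stays at or below 44.1%.

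By library, the model mice differed from each other more than the normal mice did. The standard deviation of log2(FPKM + 1) was larger in the model group at 76.4% of tested genes, with medians of 0.216 and 0.0994. In a comparison added after the data were seen, against normal replicates 1 and 2 alone, it was larger at 72.6%, with a normal median of 0.103. A principal component analysis gave a leading axis with 78.1% of the variance, where model replicates 1 to 3 lay at 42.5, 63.8 and 62.3 and the normal libraries between -60.4 and -51.4. The next axis, with 11.5%, set model replicate 2 (-36.4) apart from model replicate 3 (28.4). The Y-linked genes Ddx3y, Eif2s3y, Kdm5d and Uty were listed at 0 in all 6 libraries. In whole lung tissue, fewer cells of a type and less RNA per cell cannot be told apart, which holds for every gene group below.

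Changes are given as the model minus the normal mean of log2(FPKM + 1), ± its standard error. A gene was called at a Benjamini-Hochberg adjusted p below 0.05 in limma, two-sided and over all 14135 genes. By this rule 2587 genes (18.3%) were higher and 3505 (24.8%) lower in model lung. Without normal replicate 3 the counts were 1971 and 1853, and without normal replicate 1 they were 2087 and 2157. Of the calls 42.5% were higher, a share that became 54.6% with median-of-ratios scaling, which moved the median change of all genes from -0.12 to 0.01, and 33% with equal sums without the 100 most abundant genes, which moved it to -0.23. Which direction held more calls therefore depended on the scaling. Expression ranges did not overlap between the groups at 3331 genes that were higher (23.6%) and 5001 that were lower (35.4%).

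Large changes were almost all increases. Among called genes, 1322 (9.35%) were higher and 1089 (7.7%) lower by at least 2-fold, 532 were higher and 73 lower by at least 4-fold, 229 and 11 by at least 8-fold, and 37 and 0 by at least 32-fold. The median change was 1.02 among the higher calls and -0.77 among the lower ones. Tested against a 2-fold minimum, 694 genes were higher and 72 lower. The filter on low values bears on this, since a gene could pass through 1 group alone. In all, 387 tested genes were under 1 FPKM in all 3 normal libraries, and 379 of them were called higher. Another 295 were under 1 FPKM in all 3 model libraries, and 273 of them were called lower. Genes at 1 or more in all 6 libraries gave 2061 higher and 2855 lower calls. The plot of called genes by size of change shows that lower calls outnumbered higher ones with no minimum size and that higher calls outnumbered lower ones from 2-fold on.

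**Figure D2:**
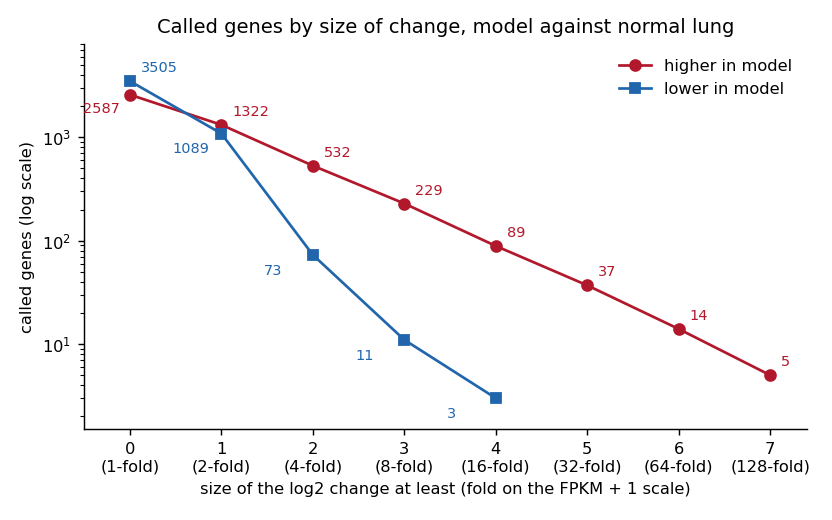
Number of called genes (y axis, log scale) with a log2 change of at least the size on the x axis, higher (circles) or lower (squares) in model lung. At 2-fold the counts are 1322 and 1089, and at 8-fold 229 and 11, and no gene was lower by 32-fold or more.

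Gene lists for cell types and pathways were compared with these background shares. The lists and their members were chosen with earlier results of these data known. Shares far from the background may in part reflect that choice, so they are descriptions and not tests. Every tested member of the lists of interferon-stimulated genes, guanylate-binding and immunity-related GTPases and MHC class I presentation was called higher, and 44 of 50 ciliated cell genes lower. Shares near the background, as for basement membrane genes (3 higher and 3 lower of 23) and B cell genes (3 and 2 of 19), are not results about those lists. List counts without normal replicate 3 stand against 1971 higher and 1853 lower calls among 14135 genes, fewer than in the main fit. A member under 1 FPKM in every normal library passed the filter through the model group alone and had to differ. For most lists with several such members higher counts are also given over members at 1 FPKM or more in all 6 libraries. Members under 1 FPKM in every model library had to differ the other way, so lower counts of some lists are given likewise. The same limit holds for single genes named below whose values in 1 group are all under 1 FPKM. Their lack of overlap was fixed by the filter, and their calls are not separate support.

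**Figure D3:**
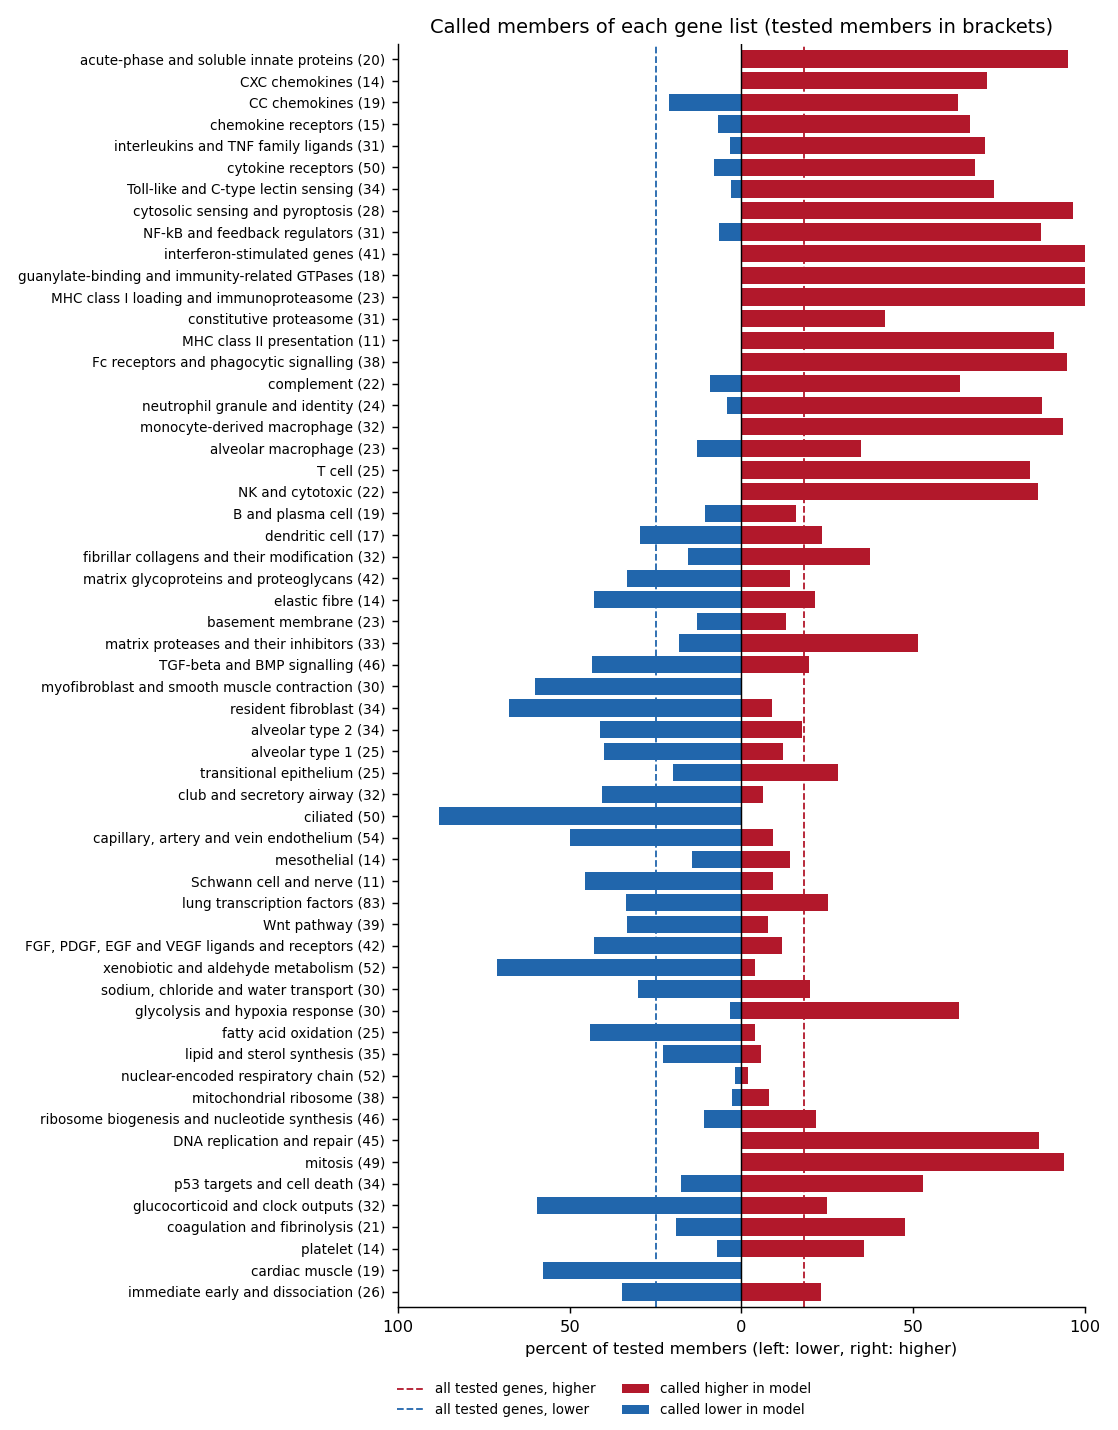
Percent of tested members called lower (left, blue) or higher (right, red) in model lung for each list with at least 10 tested members, whose number stands in brackets. Dashed lines mark the share over all tested genes, 18.3% higher and 24.8% lower. Bars of the cytosolic sensing, interferon, MHC class I, Fc receptor and neutrophil lists reach far past the right line, and bars of the ciliated, fibroblast and xenobiotic lists past the left one.

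Acute-phase and soluble innate proteins rose together. These are secreted proteins that bind microbes, metals or lipids, or that limit proteases and cytokines. Of 20 tested members 19 were called higher and 0 lower (median change 2.59), or 17 and 0 without normal replicate 3. At 1 FPKM or more in all 6 libraries 12 of 13 were higher. Together they held 3.42%, 4.69% and 3.61% of the summed FPKM in model replicates 1 to 3, and 0.431% to 0.466% in normal lung. Saa3, a serum amyloid A made in inflamed tissue that lies at chr7:46711998-46715700 (GRCm38), had the largest change of all genes (10.47 ± 0.27, adjusted p = 7.86e-06). It stood at 6384, 13203 and 7175 FPKM in model replicates 1 to 3 and 5.61, 4.43 and 4.86 in normal replicates 1 to 3, and in model replicate 2 it was the most abundant transcript of the library. Lcn2, an iron-sequestering lipocalin, stood at 3887, 5412 and 3969 against 76.7, 72 and 72.8 FPKM (5.87 ± 0.16, adjusted p = 8.05e-06). Chitinase-like Chil1 stood at 1942, 1991 and 1674 against 428, 462 and 448 FPKM (2.06 ± 0.13, adjusted p = 7.04e-05). Model and normal values were far apart for all of these, with model replicate 2 highest for Saa3 and Lcn2. Haptoglobin (Hp) was abundant in both groups and was not called (1794 ± 203 against 1424 ± 128 FPKM, SD, n = 3 each, 0.33 ± 0.16, adjusted p = 0.142).

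Chemokines, which guide leukocytes into tissue, were among the largest increases. Of the CXC chemokines 10 of 14 tested members were called higher and 0 lower, also without normal replicate 3, and 5 of 9 were higher among those at 1 FPKM or more in all 6 libraries. Neutrophil-attracting Cxcl3 stood at 118, 107 and 124 against 0.357, 0.355 and 0.361 FPKM (6.43 ± 0.10, adjusted p = 1.83e-06), and Cxcl2 at 156, 151 and 127 against 1.54, 0.683 and 1.87 FPKM (5.97 ± 0.21, adjusted p = 1.17e-05). Every model value of Cxcl2 was above every normal value. Cxcl3 was under 1 FPKM in every normal library, so the filter fixed this for it in advance. Cxcl13, which attracts B cells, rose by 5.24 ± 0.19, and Cxcl12, a stromal chemokine, by 1.94 ± 0.08. Cxcl15 and Cxcl17, which lung epithelium makes at rest, were not called (-0.12 ± 0.13 and 0.41 ± 0.62). Of the CC chemokines 12 of 19 were higher and 4 lower, or 12 up and 2 down without normal replicate 3. Ccl3 and Ccl4, which draw monocytes and lymphocytes, rose by 6.94 ± 0.24 and 5.43 ± 0.26, and Ccl2 and Ccl7, the ligands of Ccr2, by 5.04 ± 0.10 and 4.23 ± 0.24.

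Receptors of these ligands moved in the same direction in most cases, with 10 of 15 tested members higher and 1 lower (9 up and 1 down without normal replicate 3, and 6 of 9 higher at 1 FPKM or more in all 6 libraries). Cxcr2, the neutrophil receptor for Cxcl2 and Cxcl3, stood at 21.4, 20.4 and 25.6 against 0.344, 0.50 and 0.53 FPKM (4.0 ± 0.13, adjusted p = 9.87e-06). Ccr1, a receptor for Ccl3, rose by 3.67 ± 0.17. Ackr1, which carries chemokines across venular endothelium, went from 0.141 ± 0.0438 to 5.82 ± 2.32 FPKM (2.52 ± 0.26, adjusted p = 0.000607).

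An NF-kB motif could be read upstream of both Cxcl3 and Cxcl2. Motifs were searched on both strands of the RefSeq promoter windows (GRCm38.p6), which run from 250 bases before to 50 after a gene's start, and 10554 tested genes had a window. The NF-kB motif was spelled GGG, any 2 bases and TTTCC. It was found in 27.3% of 11 windows of the CXC list, in 1.69% of the windows of tested genes and in 1.63% of all 32851 windows. The 250 bases before the start of the 2 genes of this list with the largest change among those with a single window and a match are shown so that the shared letters can be compared, with matches in capitals. They lie at chr5:90785851-90786100 (+ strand) and chr5:90903649-90903898 (+ strand).
Cxcl3: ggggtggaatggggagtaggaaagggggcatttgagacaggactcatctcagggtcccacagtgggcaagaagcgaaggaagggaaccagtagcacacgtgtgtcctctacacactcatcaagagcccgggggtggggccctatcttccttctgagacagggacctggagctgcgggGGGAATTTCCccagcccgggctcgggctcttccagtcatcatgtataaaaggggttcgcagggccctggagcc
Cxcl2: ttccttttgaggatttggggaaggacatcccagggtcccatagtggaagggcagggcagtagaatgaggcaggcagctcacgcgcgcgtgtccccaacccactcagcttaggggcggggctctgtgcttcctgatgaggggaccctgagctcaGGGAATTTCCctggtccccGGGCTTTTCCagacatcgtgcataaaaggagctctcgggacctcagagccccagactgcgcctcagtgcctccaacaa
Both carry the same match, and Cxcl2 has another one a few bases downstream. A match describes the letters and is not evidence of binding.

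**Figure D4:**
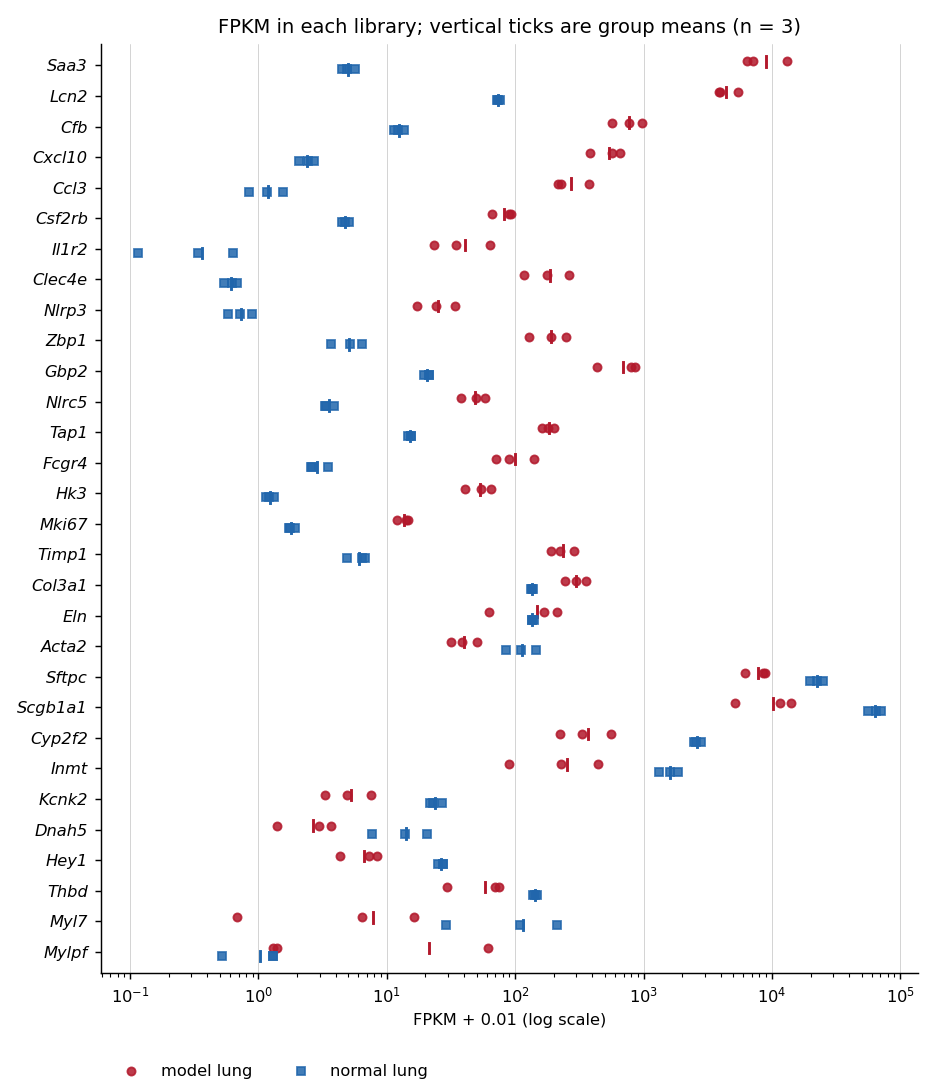
FPKM + 0.01 on a log axis for a selection of genes (rows), with 1 point per library, circles for model and squares for normal lung, and a vertical tick at each group mean. Points of the groups are separate in every row but Eln and Mylpf, where model replicate 2 lies apart from the other model libraries.

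Most listed cytokine and cytokine receptor genes were called higher. Of the interleukins and TNF family ligands 22 of 31 tested members were higher and 1 lower, or 18 up and 0 down without normal replicate 3. 8 of the tested members were under 1 FPKM in all normal libraries, and 12 of 20 were higher among those at 1 or more in all 6. Csf3, the granulocyte growth factor G-CSF, stood at 13.5, 12.5 and 14.5 against 0, 0 and 0.038 FPKM (3.83 ± 0.11, adjusted p = 8.05e-06). Interferon gamma (Ifng) stood at 8.67, 14.8 and 11.8 against 0.24, 0.199 and 0.269 FPKM (3.34 ± 0.19, adjusted p = 4.65e-05), and tumour necrosis factor (Tnf) at 39.5, 76 and 62.1 against 1.2, 1.31 and 0.992 FPKM (4.75 ± 0.23, adjusted p = 2.86e-05). All 3 were at most 1.31 FPKM in normal lung. The alarmin Il33 was higher on average but not called (60.8 ± 14.7 against 37.2 ± 18 FPKM, 0.81 ± 0.42, adjusted p = 0.159).

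On the receptor side 34 of 50 tested members were higher and 4 lower (29 up and 3 down without normal replicate 3, and 29 of 44 higher at 1 FPKM or more in all 6 libraries). The G-CSF receptor Csf3r stood at 73.5, 80.5 and 92 against 1.65, 2.39 and 1.75 FPKM (4.83 ± 0.14, adjusted p = 8.05e-06). Csf2rb, the shared chain of the GM-CSF, interleukin 3 and interleukin 5 receptors, stood at 65.8, 92.7 and 89.1 against 4.43, 5.05 and 4.67 FPKM (3.85 ± 0.15, adjusted p = 1.34e-05). Il1r2, a decoy that binds interleukin 1 without signalling, stood at 23.2, 63.3 and 34.5 against 0.623, 0.105 and 0.326 FPKM (4.84 ± 0.35, adjusted p = 0.00012). These receptors are carried mainly by myeloid cells, and the groups did not overlap for Csf3r and Csf2rb. Il1r2 was under 1 FPKM in every normal library, so the filter fixed this for it in advance. The TNF receptors differed in size: Tnfrsf1b rose by 4.11 ± 0.15 and Tnfrsf1a, which most cells carry, by 1.0 ± 0.10. The ligand-binding chain of the interferon gamma receptor, Ifngr1, was at 86.7, 75.2 and 80.3 against 79.1, 88.5 and 81.3 FPKM and was not called, and neither was the lymphotoxin receptor Ltbr (0.26 ± 0.09).

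Genes that sense microbes and damage rose at the cell surface and in the cytosol. Of the Toll-like and C-type lectin receptors with their adaptors 25 of 34 tested members were higher and 1 lower (24 up and 1 down without normal replicate 3). 7 of them were under 1 FPKM in all normal libraries, and 15 of 23 were higher among those at 1 or more in all 6. Tlr2, the receptor for bacterial lipoproteins, stood at 86.8, 139 and 117 against 5.86, 5.91 and 6.79 FPKM (3.98 ± 0.18, adjusted p = 2.17e-05). Cd14, which hands lipopolysaccharide to Toll-like receptor 4, stood at 324, 524 and 406 against 55.3, 31.1 and 40.8 FPKM (3.28 ± 0.25, adjusted p = 0.000148). Among the lectins, Clec4e (Mincle) stood at 117, 264 and 177 against 0.666, 0.607 and 0.533 FPKM and its partner Clec4d rose by 6.12 ± 0.24. Clec5a rose by 4.27 ± 0.21 and the scavenger receptor Msr1 by 3.7 ± 0.15. Nucleic acid sensor Tlr13 went from 1.02 ± 0.0475 to 20.1 ± 3.4 FPKM (3.37 ± 0.14, adjusted p = 2e-05). Cd209a, a dendritic cell lectin, was the member called lower, at 0.395, 0.162 and 0.349 against 8.88, 9.1 and 7.72 FPKM (-2.88 ± 0.13, adjusted p = 2.25e-05).

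Cytosolic sensing and pyroptosis genes gave 27 of 28 tested members higher and 0 lower, with the same counts without normal replicate 3. 6 members were under 1 FPKM in all normal libraries, and 20 of 21 were higher among those at 1 or more in all 6. Zbp1, which senses Z-form nucleic acid and starts necroptosis, stood at 127, 251 and 192 against 6.44, 3.66 and 5.19 FPKM (4.94 ± 0.28, adjusted p = 4.6e-05). The inflammasome sensors Nlrp3 and Mefv (pyrin) stood at 17.3, 24.2 and 34.2 against 0.877, 0.569 and 0.708 FPKM (3.89 ± 0.24, adjusted p = 6.19e-05) and at 19.3, 34.4 and 30.01 against 0.292, 0.299 and 0.334 FPKM (4.43 ± 0.21, adjusted p = 2.65e-05). DNA sensor Aim2 rose by 2.5 ± 0.16. Downstream of them, the pore-forming gasdermin gene Gsdmd stood at 57.9, 76 and 66.4 against 18.1, 19.3 and 19.5 FPKM (1.76 ± 0.12, adjusted p = 8.97e-05), and Ninj1, which ruptures the membrane of dying cells, at 96.6, 168 and 98 against 19.5, 27.5 and 20.2 FPKM (2.35 ± 0.25, adjusted p = 0.000602). Sensors and pore-forming proteins were thus both among the called members. The member not called was Mavs, the mitochondrial adaptor of RNA sensing (10.8 ± 1.91 against 12.4 ± 0.145 FPKM, -0.20 ± 0.14).

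Regulators of NF-kB and of cytokine signalling rose alongside, with 27 of 31 tested members higher and 2 lower (25 up and 0 down without normal replicate 3). Socs1 and Socs3, which switch cytokine receptors off, stood at 23.2, 42.1 and 29.5 against 1.42, 1.98 and 2.21 FPKM (3.48 ± 0.23, adjusted p = 8.02e-05) and 141, 170.3 and 194 against 21.9, 16.8 and 18.7 FPKM (3.07 ± 0.15, adjusted p = 2.95e-05). The NF-kB inhibitors Nfkbie and Nfkbia rose by 2.94 ± 0.13 and 2.13 ± 0.13, and Zc3h12a, an RNase that degrades cytokine messengers, by 3.18 ± 0.10. Model replicate 1 was lowest among the model mice for Socs1, Socs3 and Zbp1. The phosphatase gene Dusp1 was lower (-1.13 ± 0.34, adjusted p = 0.0346, and 0.0880 without normal replicate 3).

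Interferon-stimulated genes were called higher without exception among the 41 tested, and 40 were without normal replicate 3 (median change 2.3). 1 of them was under 1 FPKM in all normal libraries. Rsad2, the antiviral radical enzyme viperin, and Oas3, which makes the activator of RNase L, rose by 4.5 ± 0.25 and 4.18 ± 0.21. The membrane protein genes Ifitm3 and Bst2, which block virus entry and release, were already abundant in normal lung and stood at 833, 1104 and 1011 against 290.4, 305 and 303 FPKM (1.7 ± 0.14, adjusted p = 0.000196) and 334, 454 and 395 against 97.2, 119 and 108 FPKM (1.85 ± 0.15, adjusted p = 0.000171). The smallest increases still passed, as for Ifitm2 (0.96 ± 0.11, adjusted p = 0.000792).

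The guanylate-binding proteins and immunity-related GTPases, interferon gamma targets that attack vacuoles of intracellular microbes, rose as a family. All 18 tested members were higher, also without normal replicate 3 (median change 3.67), and 2 were under 1 FPKM in all normal libraries. Their share of the summed FPKM was 0.514%, 0.671% and 0.789% in model replicates 1 to 3 against 0.0334% to 0.0352% in normal lung. Gbp2 stood at 430.2, 862 and 797 against 21.2, 21.4 and 19.4 FPKM (4.94 ± 0.26, adjusted p = 3.65e-05). Gbp5, which promotes inflammasome assembly, rose by 5.53 ± 0.25, Gbp10 by 5.67 ± 0.21, and the GTPases Iigp1 and Igtp by 4.78 ± 0.14 and 4.51 ± 0.15. Model replicate 1 had the lowest share. Gbp and Tgtp genes have close copies, so single values are uncertain where reads were split between them.

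The promoters of this family are shown because most of them share a short sequence found in few other windows. The core of the interferon-stimulated response element was searched on both strands as TTTC, any 2 bases and TTTC. It was found in 10 of 12 windows of the GTPase list (83.3%), in 36.6% of 41 windows of interferon-stimulated genes, in 23.8% of 21 windows of the MHC class I list and in 0 of 44 windows of ciliated cell genes. Windows of all tested genes held it in 3.22%, and all windows of the table in 3.44%. By size of change it was in 14.4% of windows of genes higher by at least 4-fold, 4.91% of those higher by less and 2.85% of those lower by at least 2-fold. The 250 bases before the start follow for the 2 GTPase genes and the 2 interferon-stimulated genes with the largest changes among genes with a single window and a match. Matches are in capitals, and a match on the opposite strand reads as its reverse complement. They lie at chr3:142496684-142496933 (+ strand), chr3:142620413-142620662 (+ strand), chr12:26456453-26456702 (- strand) and chr5:120777660-120777909 (- strand).
Gbp5: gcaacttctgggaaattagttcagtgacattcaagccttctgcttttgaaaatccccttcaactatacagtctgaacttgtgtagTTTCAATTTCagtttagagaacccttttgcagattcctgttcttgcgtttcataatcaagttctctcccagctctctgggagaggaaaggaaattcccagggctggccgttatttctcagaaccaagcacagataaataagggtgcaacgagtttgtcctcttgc
Gbp2: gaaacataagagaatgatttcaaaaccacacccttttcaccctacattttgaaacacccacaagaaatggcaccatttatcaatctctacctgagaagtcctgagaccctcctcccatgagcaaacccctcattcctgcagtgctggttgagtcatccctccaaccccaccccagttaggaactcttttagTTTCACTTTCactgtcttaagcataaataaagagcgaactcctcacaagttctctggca
Rsad2: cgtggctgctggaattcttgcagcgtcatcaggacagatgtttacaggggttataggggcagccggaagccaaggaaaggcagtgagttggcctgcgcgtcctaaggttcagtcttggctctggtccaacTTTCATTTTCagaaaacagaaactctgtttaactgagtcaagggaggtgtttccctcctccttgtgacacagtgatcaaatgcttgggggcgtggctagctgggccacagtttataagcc
Oas3: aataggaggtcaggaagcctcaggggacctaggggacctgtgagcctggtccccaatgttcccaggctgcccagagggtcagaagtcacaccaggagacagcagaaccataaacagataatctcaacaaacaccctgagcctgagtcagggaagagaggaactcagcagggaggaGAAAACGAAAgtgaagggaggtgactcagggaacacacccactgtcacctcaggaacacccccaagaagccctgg
Each sequence holds 1 match upstream of the start, and that of Oas3 is on the opposite strand.

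Transcripts of MHC class I antigen presentation rose, from the immunoproteasome and the peptide transporter to the heavy and light chains. All 23 tested members were higher, also without normal replicate 3 (median change 2.09). Light chain B2m stood at 4065, 6539 and 4112 against 1047, 1191 and 1129 FPKM (2.09 ± 0.23, adjusted p = 0.000746) and heavy chain H2-K1 at 1382, 1909 and 1149 against 353, 364 and 353 FPKM (2.02 ± 0.20, adjusted p = 0.000451). The peptide transporter gene Tap1 stood at 162, 202 and 182 against 14.6, 15.5 and 15.4 FPKM (3.49 ± 0.11, adjusted p = 9.13e-06), the immunoproteasome gene Psmb9 rose by 2.88 ± 0.18, and Nlrc5, the transactivator of MHC class I genes, by 3.44 ± 0.17. Near-identical class I genes share reads, so values of single heavy chains are uncertain. The constitutive proteasome did not move to the same extent, with a median change of 0.25 over 31 tested members. 13 of them were called higher, but only 3, 2 and 1 without normal replicate 1, 2 or 3, and 6 with quantile normalization. Psmb5, the constitutive counterpart of an immunoproteasome subunit, changed by 0.40 ± 0.12, adjusted p = 0.0383, and 0.139 without normal replicate 3. In MHC class II presentation, used by professional antigen-presenting cells, 10 of 11 were higher and 0 lower (9 up and 0 down without normal replicate 3). The transactivator Ciita rose by 2.25 ± 0.19 and the protease Ctss, which trims the invariant chain, by 3.09 ± 0.21.

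Genes of phagocytes and neutrophils rose. In the list of Fc receptors and phagocytic signalling 36 of 38 tested members were higher and 0 lower (median change 2.88), or 35 and 0 without normal replicate 3, and 30 of 32 were higher at 1 FPKM or more in all 6 libraries. Fcgr4, an activating receptor for immunoglobulin G, stood at 71.2, 139.8 and 89.6 against 3.44, 2.6 and 2.58 FPKM (4.66 ± 0.25, adjusted p = 3.75e-05), and the signalling adaptors Fcer1g and Tyrobp rose by 3.83 ± 0.27 and 2.96 ± 0.26. Fcgrt, the neonatal Fc receptor that recycles antibody in endothelium and epithelium, was not called (29.5 ± 11.4 against 44 ± 10.1 FPKM, -0.61 ± 0.30, adjusted p = 0.142). Of the neutrophil genes 21 of 24 were higher and 1 lower (median change 4.21), or 21 and 0 without normal replicate 3. In this list 9 of the tested members were under 1 FPKM in all normal libraries. Among those at 1 or more in all 6 10 of 13 were higher. The neutrophil genes held 1.54%, 1.9% and 1.75% of the summed FPKM in model lung against 0.0669% to 0.126% in normal lung. Collagenase Mmp8 stood at 56, 83.9 and 69.8 against 0.533, 0.503 and 0.352 FPKM (5.58 ± 0.16, adjusted p = 8.05e-06). Lactoferrin (Ltf), which airway glands also make, was not called (127 ± 121 against 150.2 ± 146 FPKM, 0.36 ± 1.35, adjusted p = 0.850).

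Genes of monocyte-derived macrophages rose, while those of alveolar macrophages went both ways. Of the genes of monocyte-derived macrophages 30 of 32 tested members were higher and 0 lower (median change 2.5), or 27 and 0 without normal replicate 3. Ms4a6d stood at 75, 177 and 115 against 4.9, 5.25 and 5.17 FPKM (4.25 ± 0.29, adjusted p = 8.89e-05), the lysosomal protease genes Ctsd and Ctsz rose by 1.81 ± 0.15 and 2.44 ± 0.17, and Slc7a11, the cystine importer, by 3.64 ± 0.16. Of the genes of resident alveolar macrophages 8 of 23 were higher and 3 lower, or 8 and 2 without normal replicate 3. Their median change was 0.05, which became -0.05 with equal sums without the 100 most abundant genes. Lipid handling genes Fabp1 and Cidec were lower (-2.24 ± 0.33 and -1.59 ± 0.36), whereas Ear6, an RNase gene with close copies, and the scavenger receptor Marco were higher (2.5 ± 0.16 and 2.12 ± 0.20). Whether the lists differ was not tested.

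T cell genes changed little in size but mostly in 1 direction, with 21 of 25 tested members higher and 0 lower (median change 0.66). The count was 12 without normal replicate 3, 11 without normal replicate 1 and 13 with no filter, and 5 members were under 1 FPKM in all normal libraries, with 14 of 18 higher among those at 1 or more in all 6. Cd8a stood at 4.48, 5.36 and 5.8 against 1.44, 1.52 and 1.39 FPKM (1.34 ± 0.12, adjusted p = 0.00035), and the inhibitory receptors Pdcd1 and Havcr2 rose by 1.36 ± 0.18 and 1.44 ± 0.12. Among NK and cytotoxic genes 19 of 22 were higher and 0 lower (17 up and 0 down without normal replicate 3). 6 were under 1 FPKM in all normal libraries, and 12 of 15 were higher among those at 1 or more in all 6. Perforin (Prf1) stood at 15.4, 11.3 and 12 against 3.1, 2.82 and 2.96 FPKM (1.8 ± 0.14, adjusted p = 0.00014) and the transcription factor Tbx21 rose by 1.55 ± 0.15. Dendritic cell genes were called at shares near the background (4 higher and 5 lower of 17, or 3 and 4 without normal replicate 3), which is not a result about the list. Mgl2, a lectin of type 2 conventional dendritic cells and macrophages, fell from 18.8 ± 1.96 to 3.4 ± 1.98 FPKM (-2.29 ± 0.37, adjusted p = 0.00369), and Batf3, a factor of type 1 cells, rose by 1.05 ± 0.15.

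Complement genes rose more often than they fell. In the list 14 of 22 tested members were higher and 2 lower (13 up and 2 down without normal replicate 3). Factor B (Cfb), the protease of the alternative pathway, stood at 564, 967 and 772 against 11.4, 13.6 and 12.2 FPKM (5.81 ± 0.20, adjusted p = 1.17e-05), and C3 at 648, 522 and 755 against 85.5, 112 and 101 FPKM (2.67 ± 0.17, adjusted p = 7.38e-05). The receptor gene C3ar1 rose by 3.24 ± 0.15. Factor D (Cfd), which activates factor B and is made by fat cells, was not called and varied within both groups, at 13.8, 25.9 and 0.195 against 106, 12.3 and 53.6 FPKM.

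Cell division genes rose in all 3 model mice by similar amounts. Of the DNA replication and repair genes 39 of 45 tested members were higher and 0 lower (median change 0.92), or 35 and 0 without normal replicate 3. Of the mitosis genes 46 of 49 were higher and 0 lower (median change 1.1), or 43 and 0. 7 and 10 of them were under 1 FPKM in all normal libraries, and 27 of 32 and 34 of 36 were higher among those at 1 or more in all 6. Mki67, which coats mitotic chromosomes, stood at 11.9, 14.6 and 14.2 against 1.93, 1.71 and 1.74 FPKM (2.38 ± 0.12, adjusted p = 2.99e-05). The ubiquitin-conjugating enzyme gene Ube2c, needed to leave mitosis, stood at 21.9, 17.2 and 16.7 against 3.25, 3.92 and 3.73 FPKM (2.07 ± 0.14, adjusted p = 8.16e-05). The helicase subunit gene Mcm5 rose by 2.03 ± 0.12 and the cyclin gene Ccne1 by 1.86 ± 0.19. Stmn1 and Pttg1, the most abundant members of the mitosis list that were not called, changed by -0.21 ± 0.16 and -0.34 ± 0.14.

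Mitosis promoters also share short motifs, shown for the 2 genes of the list with the largest changes among those with a single window and both motifs. The CCAAT box (CCAAT) was in 72.7% of 44 windows of mitosis genes against 37.1% of windows of tested genes and 37.4% of all windows. The cell cycle homology region (TTTGAA) was in 70.5% against 12.3% and 17.9%. The E2F motif (TTCCCGCC) was in 20.5% of 44 windows of DNA replication genes against 3.78% and 2.19%. Both strands were searched. The 250 bases before the start of Mki67 and Ube2c lie at chr7:135716380-135716629 (- strand) and chr2:164769679-164769928 (+ strand), with matches to the first pair of motifs in capitals.
Mki67: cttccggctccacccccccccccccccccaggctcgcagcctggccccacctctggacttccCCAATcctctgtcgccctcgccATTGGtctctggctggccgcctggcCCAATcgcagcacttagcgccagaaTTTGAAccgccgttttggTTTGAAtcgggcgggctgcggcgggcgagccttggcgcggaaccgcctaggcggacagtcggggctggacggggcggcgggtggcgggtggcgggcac
Ube2c: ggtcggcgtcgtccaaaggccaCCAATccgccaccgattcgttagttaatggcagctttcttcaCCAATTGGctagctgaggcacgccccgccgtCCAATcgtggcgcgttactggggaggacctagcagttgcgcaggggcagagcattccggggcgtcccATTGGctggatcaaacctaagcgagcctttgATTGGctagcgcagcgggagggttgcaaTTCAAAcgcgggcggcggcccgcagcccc
Mki67 has 5 matches and Ube2c 7, with the TTTGAA matches closest to the start, and a pair of CCAAT matches on opposite strands overlap in Ube2c.

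Matrix genes did not move as one group. Among the fibrillar collagens and the enzymes that modify them 12 of 32 tested members were higher and 5 lower, or 6 up and 3 down without normal replicate 3, 6 and 2 without normal replicate 1 and 8 and 3 without model replicate 3. Col3a1, at chr1:45311538-45349706, stood at 297, 243 and 355 against 137, 132 and 135 FPKM (1.13 ± 0.15, adjusted p = 0.00170). Col1a1 stood at 109.7, 59.8 and 103 against 40.3, 43 and 42.6 FPKM (1.05 ± 0.23, adjusted p = 0.0112) and Col1a2 at 157, 93.2 and 158 against 75.6, 73.7 and 75.1 FPKM (0.82 ± 0.21, adjusted p = 0.0206, and 0.0633 without normal replicate 3). Model replicate 2 was lowest of the model mice for Col1a1, Col1a2 and Col3a1. The lysyl hydroxylase gene Plod3 rose (1.03 ± 0.10) and Plod2 fell (-1.0 ± 0.15). Pcolce2, an enhancer of procollagen processing, fell by 2.61 (SE 0.36), at 14.3, 4.34 and 9.89 against 50.2, 64.8 and 58.9 FPKM, and fibril-associated Col12a1 fell as well (-1.39 ± 0.35).

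Among glycoproteins and proteoglycans of the matrix 6 of 42 tested members were higher (14.3%) and 14 lower (33.3%). Over all tested genes 18.3% were higher and 24.8% lower, which is not far off, so these counts are not read as a result about the list. The counts were 5 up and 8 down without normal replicate 3 and 11 and 18 without model replicate 2. Tgfbi, a TGF-beta-induced adhesion protein that macrophages also make, stood at 240.4, 344 and 225 against 16.5, 16.8 and 17 FPKM (3.9 ± 0.17, adjusted p = 1.98e-05). Tenascin C (Tnc) and fibronectin (Fn1), which appear in provisional matrix, rose by 1.37 ± 0.15 and 1.5 ± 0.26. Igfbp3, a carrier of insulin-like growth factors, fell, at 7.32, 4.58 and 5.36 against 31.5, 43 and 38.4 FPKM (-2.53 ± 0.18, adjusted p = 0.000118). The small proteoglycan genes Ogn and Aspn were lower too (-1.52 ± 0.19 and -1.27 ± 0.14). Osteopontin (Spp1) was higher by a small amount (76.6, 64.4 and 52.1 against 42.9, 46.7 and 46.5 FPKM, 0.48 ± 0.15, adjusted p = 0.0384, and 0.0994 without normal replicate 3).

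Elastic fibre genes differed among the model mice. Fbln5 and Ltbp4, which guide elastin onto microfibrils, stood at 20.8, 3.96 and 8.13 against 39.5, 36.1 and 25.6 FPKM (-1.78 ± 0.51, adjusted p = 0.0292, and 0.0537 without normal replicate 3) and 35.2, 7.36 and 25.4 against 62.4, 81.7 and 71.4 FPKM (-1.86 ± 0.51, adjusted p = 0.0257, and 0.0691 without normal replicate 3). In both, model replicate 2 was lowest and the model and normal libraries did not overlap. Eln, encoding elastin, stood at 212, 62.5 and 167 against 134, 139 and 136 FPKM and was not called, with model replicates 1 and 3 above all normal mice and model replicate 2 below them. Emilin2 rose (25.1, 23 and 23.9 against 2.5, 2.36 and 2.43 FPKM, 2.87 ± 0.09, adjusted p = 1.01e-05). Of 14 tested members 3 were higher and 6 lower. The lower count was 1 without normal replicate 3, 2 without normal replicate 1 or 2 and 3 without model replicate 3, and the higher count 6 without model replicate 2.

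Proteases and inhibitors that turn matrix over were higher in 17 of 33 tested members and lower in 6 (14 and 3 without normal replicate 3, and 14 of 28 higher at 1 FPKM or more in all 6 libraries). The inhibitor gene Timp1 stood at 188, 288 and 225 against 4.92, 6.7 and 6.43 FPKM (5.05 ± 0.18, adjusted p = 1.18e-05), while Timp2, which resting lung expresses more, was not called (-0.59 ± 0.21). Membrane-bound Mmp14 stood at 102, 103 and 105 against 22.7, 25.9 and 24.7 FPKM (2.04 ± 0.09, adjusted p = 2.1e-05), and the urokinase gene Plau and its receptor Plaur rose by 1.84 ± 0.12 and 1.84 ± 0.09.

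Within the TGF-beta superfamily members fell more often than they rose. In all 9 of 46 tested members were higher and 20 lower (8 up and 14 down without normal replicate 3, and 15 and 21 without model replicate 2). At 1 FPKM or more in all 6 libraries 7 of 39 were higher and 15 lower. Inhba, the activin A subunit, stood at 7.45, 10.2 and 12.1 against 1.56, 0.194 and 0.802 FPKM (2.6 ± 0.30, adjusted p = 0.00093), and its binding protein Fst at 5.25, 10.6 and 6.14 against 1.1, 0.878 and 0.949 FPKM (2.02 ± 0.23, adjusted p = 0.000928). Tgfb1 stood at 60.3, 47.2 and 53.1 against 19.7, 23.4 and 22.2 FPKM (1.26 ± 0.12, adjusted p = 0.000451). Bmp3, the receptor gene Bmpr1b and the feedback inhibitor Smad6 fell (-1.72 ± 0.29, -1.62 ± 0.15 and -1.43 ± 0.29), and so did the BMP target Id1 (-0.77 ± 0.12).

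Genes of contractile and resident mesenchymal cells fell. In the myofibroblast and smooth muscle list 0 of 30 tested members were higher and 18 lower (median change -0.87), or 0 and 14 without normal replicate 3. Acta2, smooth muscle actin, stood at 50.5, 38.6 and 31.5 against 145, 85.3 and 110.0 FPKM (-1.47 ± 0.24, adjusted p = 0.00379) and Myh11, its myosin, at 7.2, 4.53 and 5.54 against 24.7, 13.5 and 19.4 FPKM (-1.56 ± 0.24, adjusted p = 0.00300). Cthrc1, a marker of collagen-producing fibroblasts in fibrotic lung, was low in both groups and lower in model lung (1.73, 1.36 and 1.02 against 3.33, 3.7 and 3.78 FPKM, -0.97 ± 0.15, adjusted p = 0.00275). Periostin (Postn) was not called (80.8 ± 24.1 against 96.8 ± 21.4 FPKM, -0.28 ± 0.24, adjusted p = 0.391). Of the resident fibroblast genes 3 of 34 were higher and 23 lower (median change -0.90). The lower count was 10 without normal replicate 3, 15 and 13 without normal replicate 1 or 2, and 10 with no filter. Inmt, a methyltransferase of alveolar fibroblasts, stood at 439, 90.1 and 226 against 1319, 1863 and 1607 FPKM (-2.92 ± 0.53, adjusted p = 0.00581), and Tcf21, a transcription factor of lipofibroblasts, at 28.5, 14.4 and 21.2 against 67.5, 81.2 and 78.2 FPKM (-1.82 ± 0.23, adjusted p = 0.00143). Model replicate 2 was lowest for both and the groups did not overlap.

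Growth factors exchanged between fibroblasts, epithelium and vessels fell in 18 of 42 tested members and rose in 5 (10 and 4 without normal replicate 3). Fgf1 stood at 24.3, 12.7 and 28.9 against 64.9, 71.4 and 68.8 FPKM (-1.67 ± 0.28, adjusted p = 0.00409), and Angpt1, which stabilizes vessels, at 8.2, 4.96 and 6.37 against 17.7, 21.1 and 19.9 FPKM (-1.47 ± 0.17, adjusted p = 0.000996). Pdgfa, needed for alveolar myofibroblasts, fell by 1.09 on the log2 scale (SE 0.17). Hbegf, a ligand of the EGF receptor, rose by 1.52 ± 0.14, and Pgf, a ligand of VEGF receptor 1, by 1.45 ± 0.15. In the Wnt pathway 3 of 39 were higher (7.69%) and 13 lower (33.3%). The counts were 1 up and 8 down without normal replicate 3, and 1 and 8 without normal replicate 1. Over all tested genes 18.3% were higher and 24.8% lower, so the lower count is not read as a result about the list. The ligand gene Wnt10b stood at 2.02, 0.44 and 1.87 against 7.81, 10.001 and 7.79 FPKM (-2.03 ± 0.30, adjusted p = 0.00246) and beta-catenin (Ctnnb1) at 212, 170.4 and 203 against 343, 321 and 337 FPKM (-0.77 ± 0.12, adjusted p = 0.00293), while the secreted antagonist Sfrp1 rose (21.6, 18.1 and 31.8 against 4.01, 4.35 and 4.29 FPKM, 2.21 ± 0.20, adjusted p = 0.000312).

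Airway epithelial genes fell. Ciliated cell genes gave 0 of 50 tested members higher and 44 lower (median change -1.53). The lower count was 25 without normal replicate 3, 25 without normal replicate 1 and 17 with no filter, and the median change stayed between -1.8 and -1.21 over all settings. The dynein motor gene Dnah5, mutated in primary ciliary dyskinesia, stood at 2.94, 3.66 and 1.38 against 20.4, 7.7 and 13.9 FPKM (-2.0 ± 0.38, adjusted p = 0.00686). Cfap44, an axonemal protein gene, stood at 5.73, 4.42 and 3.83 against 32.2, 15.9 and 26.4 FPKM (-2.15 ± 0.26, adjusted p = 0.00118), and Sec14l3 at 249, 153 and 192 against 765, 658 and 707 FPKM (-1.86 ± 0.19, adjusted p = 0.000531). Model replicate 3 was lowest for Dnah5, and normal replicate 2 lowest of the normal mice. Foxj1, the transcription factor of the ciliated program, was lower but not called (66.9 ± 26.7 against 125 ± 29.8 FPKM, -0.96 ± 0.34, adjusted p = 0.0603).

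Club and secretory cell genes were lower in 13 of 32 tested members and higher in 2 (12 and 2 without normal replicate 3). The other 17 were not called. The list held 4.89%, 5.0% and 2.18% of the summed FPKM in model lung and 16.2% to 16.4% in normal lung. Most of this share was 1 gene, since Scgb1a1 alone held 11.4%, 14.1% and 12.9% in normal replicates 1 to 3. Scgb1a1, at chr19:9083636-9087958, stood at 14018, 11570.0 and 5138 against 56368, 71115 and 64126 FPKM (-2.76 ± 0.46, adjusted p = 0.00408) and Scgb3a2 at 761, 634 and 241 against 4563, 1826 and 3065 FPKM (-2.59 ± 0.51, adjusted p = 0.00775), with model replicate 3 lowest. Scgb3a1, a secretoglobin of upper airways, was not called (787, 2935 and 34.5 against 2836, 54.6 and 1343 FPKM), and the resistin-like gene Retnla rose (2.55 ± 0.26).

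Enzymes that metabolize drugs, aldehydes and other foreign compounds fell as a group, many of them known from club cells. Of 52 tested members 37 were lower and 2 higher (median change -1.1), or 30 and 2 without normal replicate 3. At 1 FPKM or more in all 6 libraries 32 of 41 were lower. The cytochrome P450 gene Cyp2f2 stood at 560.4, 334 and 222 against 2788, 2458 and 2579 FPKM (-2.91 ± 0.32, adjusted p = 0.000767) and the carbonyl reductase Cbr2 at 1202, 768 and 553 against 3872, 4406 and 4149.6 FPKM (-2.37 ± 0.29, adjusted p = 0.00114). Cyp1a1, a target of the aryl hydrocarbon receptor, went from 10.5 ± 1.4 to 0.732 ± 0.392 FPKM (-2.75 ± 0.19, adjusted p = 9.17e-05). The esterase gene Pon1 stood at 8.14, 8.05 and 1.35 against 67.2, 69.3 and 65.2 FPKM (-3.56 ± 0.51, adjusted p = 0.00230), the epoxide hydrolase Ephx1 fell by 1.91 (SE 0.14) and Aldh1a1 by 2.36 (SE 0.31). Their combined share was 1.07%, 0.676% and 0.665% of the summed FPKM in model lung and 2.75% to 2.82% in normal lung.

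Alveolar genes moved less and in both directions. Of the type 2 cell genes 14 of 34 tested members were lower and 6 higher (9 and 3 without normal replicate 3, 9 and 3 without normal replicate 1). Surfactant genes separated: Sftpc stood at 8900.4, 6177 and 8474 against 19846, 25072 and 22612 FPKM (-1.53 ± 0.28, adjusted p = 0.00618) and Sftpb at 1532, 870.4 and 1303 against 2519, 3348 and 2932 FPKM (-1.28 ± 0.25, adjusted p = 0.00751), whereas Sftpa1, a collectin, was not called (1572, 1135 and 1316 against 1244, 1514 and 1388 FPKM). Of the type 1 cell genes 10 of 25 were lower and 3 higher (8 and 2 without normal replicate 3). Hopx and Rtkn2 fell (-1.07 ± 0.16 and -1.57 ± 0.24), Pdpn rose (131, 149 and 147 against 64.3, 54.6 and 57.9 FPKM, 1.26 ± 0.11, adjusted p = 0.000226), and Ager, the most abundant type 1 marker, was not called (802 ± 129 against 1123 ± 145 FPKM, -0.49 ± 0.18, adjusted p = 0.0625). Among genes of transitional epithelium, the state between type 2 and type 1 cells seen after injury, 7 of 25 were higher and 5 lower (7 up and 3 down without normal replicate 3), also near the background. Its keratin gene Krt8 was not called (231 ± 97 against 197 ± 52.2 FPKM).

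Single ion and water transport genes of the epithelium changed, while the list as a whole was called at shares near the background. Slc26a4, the anion exchanger pendrin that inflamed airways induce, stood at 23.9, 21.5 and 26.8 against 3.17, 1.68 and 2.27 FPKM (2.91 ± 0.18, adjusted p = 6.74e-05), and the potassium channel gene Kcnn4 rose (1.59 ± 0.11). Kcnk2, a mechanosensitive potassium channel, stood at 7.56, 3.3 and 4.93 against 21.8, 26.7 and 23 FPKM (-2.04 ± 0.25, adjusted p = 0.00113), and the sodium pump subunit Atp1b1 at 109.6, 90.8 and 89.3 against 223, 214 and 216 FPKM (-1.17 ± 0.11, adjusted p = 0.000388). Of 30 tested members 6 were higher and 9 lower (4 up and 7 down without normal replicate 3), which is not a result about the list.

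Endothelial genes fell more often than they rose, and adhesion molecules that inflamed vessels display rose. Of 54 tested members 27 were lower and 5 higher, or 14 and 5 without normal replicate 3, 16 and 5 without normal replicate 2 and 16 and 5 with equal column sums. At 1 FPKM or more in all 6 libraries 25 of 49 were lower and 2 higher. Hey1, a Notch target of arteries, stood at 8.4, 4.29 and 7.23 against 24.9, 27.5 and 27.2 FPKM (-1.89 ± 0.21, adjusted p = 0.00085), and Thbd, thrombomodulin, at 69.4, 29.7 and 74.4 against 137, 149 and 142 FPKM (-1.39 ± 0.33, adjusted p = 0.0159). Model replicate 2 was lowest for both. The adhesion molecules Selp and Icam1 rose (5.79, 6.89 and 10.03 against 0.82, 0.738 and 1.04 FPKM, 2.17 ± 0.20, adjusted p = 0.000311, and 353, 385 and 424 against 138, 166 and 153 FPKM, 1.34 ± 0.12, adjusted p = 0.000307). Cldn5 and Plvap, abundant markers of the vessel wall, were not called (164 ± 77.1 against 270.5 ± 31 FPKM and 118 ± 28.3 against 169 ± 17.2 FPKM).

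Coagulation genes rose more often than they fell, with 10 of 21 tested members higher and 4 lower (8 up and 2 down without normal replicate 3, and 10 and 2 without normal replicate 1). Factor X (F10), which macrophages can make, stood at 67.2, 140.4 and 78.9 against 2.2, 2.22 and 1.57 FPKM (4.94 ± 0.27, adjusted p = 4.38e-05), and factor VII (F7) rose by 2.03 ± 0.11. Procr, the endothelial protein C receptor, stood at 16.6, 43.5 and 30.7 against 3.7, 2.62 and 2.6 FPKM (2.89 ± 0.33, adjusted p = 0.000883), opposite in direction to its partner Thbd. Tissue factor (F3), which starts clotting, changed by 0.76 ± 0.25, adjusted p = 0.0485, and 0.118 without normal replicate 3.

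Most glycolysis genes rose, some fatty acid oxidation genes fell and few respiratory chain genes were called. Of the glycolysis and hypoxia genes 19 of 30 tested members were higher and 1 lower (14 up and 1 down without normal replicate 3). Hk3, the hexokinase of myeloid cells, stood at 40.7, 64.5 and 53.8 against 1.31, 1.2 and 1.14 FPKM (4.58 ± 0.17, adjusted p = 1.26e-05). The lactate exporter gene Slc16a3 and Pfkfb3, which activates phosphofructokinase, rose by 1.91 ± 0.25 and 1.85 ± 0.20. Of the fatty acid oxidation genes 11 of 25 were lower and 1 higher (6 and 0 without normal replicate 3). The lower count was also 6 without normal replicate 1 and 6 without model replicate 3, and 17 without model replicate 2. Cd36, a fatty acid importer, fell (125, 83.6 and 137 against 282, 286 and 262 FPKM, -1.28 ± 0.19, adjusted p = 0.00265). Dgat2, which completes triglyceride synthesis, rose (26.7, 57.8 and 41.5 against 8.68, 3.76 and 6.18 FPKM, 2.57 ± 0.35, adjusted p = 0.00176). Dgat2 had the largest increase of the lipid and sterol synthesis list, where 2 of 35 tested members were higher (5.71%) and 8 lower (22.9%). The lower share is near the 24.8% of all tested genes and is not a result about the list. Without normal replicate 3 the list had 2 higher and 1 lower. Of 52 nuclear-encoded respiratory chain genes 1 was higher and 1 lower, although quantile normalization gave 0 and 10 and equal column sums 6 and 1. Without model replicate 2 they were 3 and 7, and without normal replicate 3 they were 0 and 0. Of 38 mitochondrial ribosome genes 3 were higher and 1 lower, and 1, 1 and 0 were higher without normal replicate 1, 2 or 3.

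Genes that glucocorticoids and the circadian clock control were lower in 19 of 32 tested members and higher in 8 (13 and 6 without normal replicate 3). The clock repressor Cry2 stood at 8.68, 5.69 and 6.59 against 19.4, 19.3 and 19.4 FPKM (-1.37 ± 0.15, adjusted p = 0.000706), and the glucocorticoid targets Zbtb16 and Klf9 fell (-1.5 ± 0.25 and -1.34 ± 0.11). Metallothionein Mt2, which zinc and cytokines also induce, went the other way (196, 296 and 241 against 32.6, 18.8 and 24.7 FPKM, 3.23 ± 0.23, adjusted p = 0.000108). The hour of sampling, which sets the level of clock genes, is not given in the sources used here. Cell death genes were higher in 18 of 34 and lower in 6 (15 and 2 without normal replicate 3, 15 and 2 without normal replicate 1). The myeloid survival gene Bcl2a1b, which has near-identical copies, rose by 3.55 ± 0.26, the initiator caspase Casp8 by 1.32 ± 0.11 and the p53 target Cdkn1a by 0.50 ± 0.11.

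The nanozyme of this series is named for superoxide dismutase and catalase, so the endogenous enzymes are given per mouse. Sod1, the cytosolic superoxide dismutase, stood at 264, 271 and 176 against 419, 417 and 439 FPKM (-0.87 ± 0.18, adjusted p = 0.00989). Mitochondrial Sod2, an NF-kB target, stood at 96.4, 119 and 141 against 19.2, 20.7 and 19.7 FPKM (2.5 ± 0.15, adjusted p = 5.37e-05). Extracellular Sod3 was not called, at 62.7, 25.2 and 59.9 against 43.5, 67.2 and 54 FPKM, with model replicate 2 alone below the normal range. Catalase (Cat), which removes hydrogen peroxide in peroxisomes, stood at 68.8, 43.2 and 53.3 against 126, 147 and 135 FPKM (-1.31 ± 0.17, adjusted p = 0.00172). The groups did not overlap for Sod1, Sod2 and Cat.

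Transcripts of blood, heart and muscle differed between groups and between mice. Of the red blood cell genes 7 of 8 tested members were lower and 0 higher, also without normal replicate 3, and their share was 0.0739%, 0.0364% and 0.0509% of the summed FPKM in model lung against 0.718% to 0.848% in normal lung. Beta globin (Hbb-bs, one of several near-identical copies) stood at 115, 70.9 and 78.8 against 1347, 1652 and 1393 FPKM (-4.06 ± 0.20, adjusted p = 2.93e-05). Cardiac muscle genes, which mouse pulmonary veins also express, were lower in 11 of 19 (5 without normal replicate 3, 5 without normal replicate 1 and 17 without model replicate 2). Only 4 of these members were at 1 FPKM or more in all 6 libraries, all called lower. Atrial myosin Myl7 stood at 6.38, 16.4 and 0.674 against 210.0, 29 and 109 FPKM (-3.89 ± 1.0, adjusted p = 0.0204, and 0.0628 without normal replicate 3), a wide range among the normal mice alone. The skeletal muscle gene Mylpf was high only in model replicate 2, at 1.29, 61.8 and 1.37 against 1.28, 1.29 and 0.508 FPKM, and was not called.

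Averaged over the tested members of a list, log2(FPKM + 1) minus the normal mean shows how far each mouse took part. For mitosis genes it was 1.26, 1.12 and 1.18 in model replicates 1 to 3 and 0.06, -0.05 and -0.01 in normal replicates 1 to 3, and for neutrophil genes 3.64, 3.99 and 3.68 in model replicates 1 to 3 and 0.11, -0.19 and 0.08 in normal replicates 1 to 3. For both lists the model mice stood close together. The filter in part sets the size of these averages. Of the members averaged, 10 mitosis and 9 neutrophil genes were under 1 FPKM in all normal libraries and passed through the model group alone. For endothelial genes it was -0.33, -1.17 and -0.37 in model replicates 1 to 3 and -0.10, 0.08 and 0.02 in normal replicates 1 to 3, for resident fibroblast genes -0.60, -1.36 and -0.81 in model replicates 1 to 3 and -0.03, 0.01 and 0.02 in normal replicates 1 to 3 and for matrix glycoproteins -0.10, -0.80 and -0.20 in model replicates 1 to 3 and -0.04, 0.02 and 0.02 in normal replicates 1 to 3. Model replicate 2 was the lowest in each. For club cell genes it was -0.56, 0.03 and -2.22 in model replicates 1 to 3 and 0.76, -1.16 and 0.40 in normal replicates 1 to 3, for ciliated genes -1.14, -1.14 and -2.0 in model replicates 1 to 3 and 0.43, -0.46 and 0.03 in normal replicates 1 to 3 and for cardiac genes -2.45, -0.99 and -3.42 in model replicates 1 to 3 and 1.0, -1.27 and 0.27 in normal replicates 1 to 3. Here model replicate 3 was lowest of the model mice, and normal replicate 1 was highest and normal replicate 2 lowest of the normal mice, so these lists varied together within each group. Their part in the differences between the groups was not tested.

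**Figure D5:**
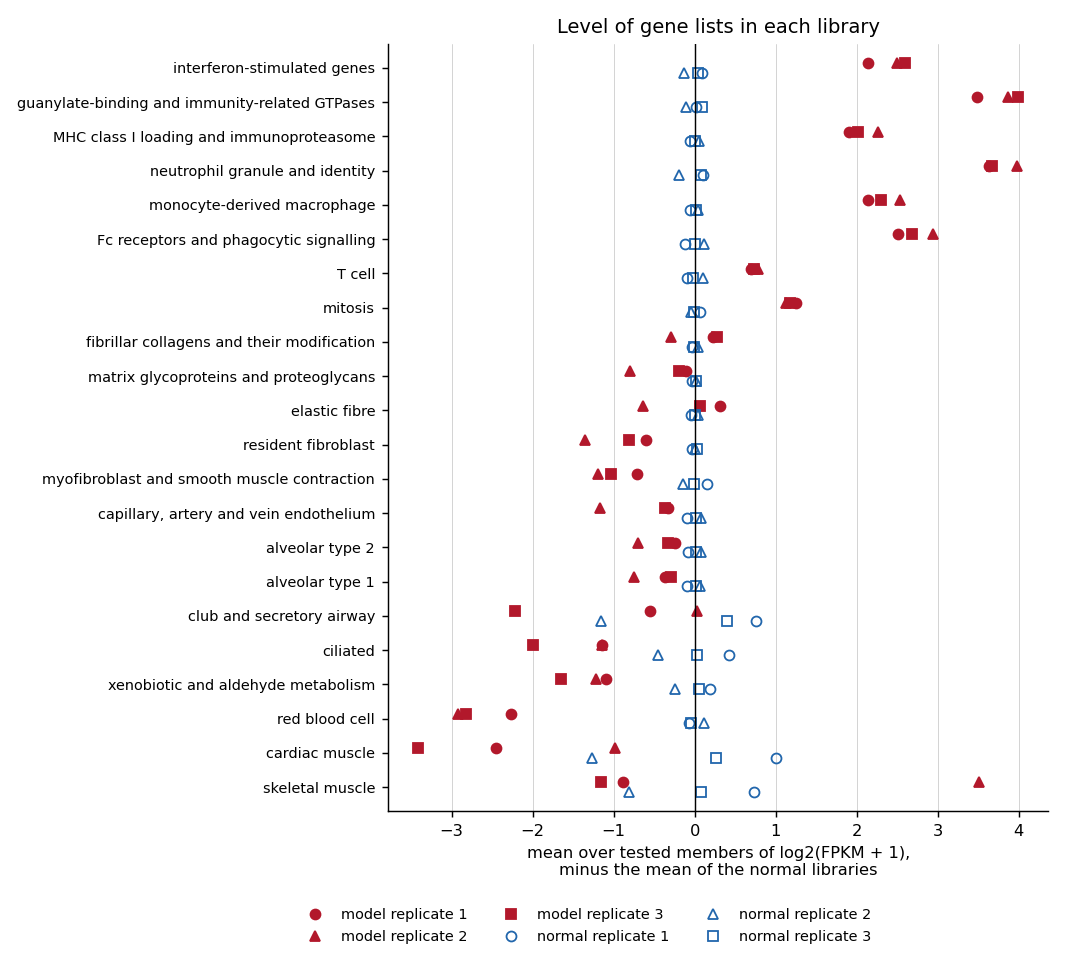
Mean over the tested members of each list (rows) of log2(FPKM + 1) minus the mean of the normal libraries (x axis), with 1 symbol per library, filled for model and open for normal lung. Model replicate 2 (filled triangles) lies lowest for endothelial, fibroblast and matrix lists and at 3.51 for skeletal muscle, and model replicate 3 (filled squares) lowest for club, ciliated and cardiac lists.

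The called genes with the largest spread among the model mice were in part the same ones. Tmem212, a ciliated cell gene, stood at 16.6, 27.1 and 4.71 against 79.6, 40.4 and 61.7 FPKM (-2.07 ± 0.58, adjusted p = 0.0267, and 0.0739 without normal replicate 3), with model replicate 3 lowest. Cyp26b1, which degrades retinoic acid, stood at 14, 2.27 and 9.1 against 0.896, 0.976 and 0.947 FPKM (2.03 ± 0.52, adjusted p = 0.0202, and 0.0578 without normal replicate 3), with model replicate 2 lowest of the model mice. Cd177, a surface protein of a subset of neutrophils, stood at 48.3, 118 and 18 against 6.63, 1.51 and 4.0 FPKM (3.4 ± 0.70, adjusted p = 0.00918), with model replicate 2 highest. For Tmem212 and Cd177 the model range stayed outside the normal range. Cyp26b1 was under 1 FPKM in every normal library, so the filter fixed this for it in advance.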

How the data were processed

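Whole lung RNA of 3 model and 3 normal mice was sequenced. Reads were aligned with HISAT2 to GRCm38, per the submitters' processing notes, and other tools are not given in the sources used here. The authors deposited FPKM per gene, with no counts, so depth is unknown and no counting interval can be given. FPKM summed to between 443746 and 519772 per library. Genes with at least 1 FPKM in at least 3 of the 6 libraries (14135) were tested on log2(FPKM + 1) with limma 3.58.1 (R 4.3.3), empirical Bayes with an intensity trend, two-sided, with Benjamini-Hochberg adjustment at 0.05. Such changes understate those of low genes. On simulated data of 14135 genes with 100 genes changed by log2 1 and 100 by log2 2, 58% and 87% were called, with 11 of the unchanged genes. These rates need not hold for the data. The simulation changed few genes and gave each gene the same spread in both groups. In the data 43.1% of genes were called and the model group had the larger spread. Members and gene lists were chosen with earlier results of these data known. The text names a selection of genes from these: the 15 largest changes each way, in each list the 5 smallest adjusted p, the 3 largest changes, the 3 most abundant called and the 2 most abundant not called, the 10 most abundant per group, the 10 called genes with the largest model SD, and 15 genes of matrix, antioxidant and lung identity. Positions are from GENCODE (GRCm38) and promoter windows from RefSeq (GRCm38.p6). Generic gene entries (837 tested) carry no symbol and are not named. Python 3.11.15, pandas 2.3.3 and matplotlib 3.10.9 were used. Alternatives were another pseudocount, filters, scalings, a replicate block, a test against 2-fold and omission of each library in turn.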

Additional observations from a re-analysis of the deposited data

How the results depend on the processing

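The number of genes called higher or lower was within 1.5 times of 2587 and 3505 in most settings. With a filter at a mean FPKM of 5, fewer genes were tested and 2274 were lower. Against a 2-fold minimum 694 were higher and 72 lower. Leaving out 1 library gave 1971 to 2891 higher and 1853 to 3559 lower genes, lowest both ways without normal replicate 3 and highest both ways without model replicate 2. The share of calls that were higher was 52.3% with equal column sums, which moved the median of all genes to -0.06. The lower count of 21 of 64 lists moved by more than 1.5 times with no filter, and of 20 without normal replicate 3. With no filter the lower counts were 17 for ciliated, 10 for resident fibroblast, 9 for endothelial, 7 for glycoprotein, 13 for TGF-beta and BMP, 7 for Wnt, 7 for type 2 cell and 2 for cardiac genes. With the filter at a mean of 5, fewer members were tested and the higher counts were 15 for mitosis, 20 for DNA replication, 8 for NK and 5 for T cell genes. The numbers of the libraries are not stated to pair animals. Same-numbered model and normal libraries correlated in their deviations at -0.01, -0.34 and -0.12, and no library correlated best with its own number. With a replicate block 2208 genes were higher and 2682 lower, and the constitutive proteasome had 6 higher and fatty acid oxidation 6 lower calls.

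Of 209 genes named, 184 were called. 110 kept their call in every setting. 72 lost it against the 2-fold minimum, 21 with no filter, 4 with the block and 13 when at least 1 library was left out (11 without normal replicate 1 and 11 without normal replicate 3). 177 kept it under every scaling, and 0 changed sign in any setting. Genes that were not called and lay near 0 changed sign. With median-of-ratios scaling the change was 0.037 for Cxcl15, 0.089 for Eln, 0.11 for Ifngr1 and 0.10 for Sftpa1. With equal column sums the change was 0.015 for Eln, 0.036 for Ifngr1 and 0.025 for Sftpa1. With sample weights the change was 0.27 for Eln, 0.013 for Ifngr1, -0.032 for Krt8, -0.83 for Ltf, 0.014 for Sftpa1 and 0.022 for Sod3. With quantile normalization the change was -0.14 for Krt8. Leaving out 1 library gave -0.10 to 0.86 for Cxcl17, -0.41 to 0.46 for Eln, -0.092 to 0.0093 for Ifngr1, -0.13 to 0.38 for Krt8, -1.15 to 1.38 for Ltf, -2.17 to 1.35 for Scgb3a1, -0.17 to 0.062 for Sftpa1 and -0.46 to 0.18 for Sod3. FPKM without counts gives no measure of depth, so low values, such as the T cell and cytokine genes under 1 FPKM in normal lung, carry an unknown counting error.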

Other observations

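A list of 83 tested transcription factors, of leukocytes as well as lung cells, gave 21 higher (25.3%) and 28 lower calls (33.7%). Without normal replicate 3 the counts were 19 and 15, and 17 and 18 were lower without normal replicate 1 or 2. At 1 FPKM or more in all 6 libraries 17 of 71 were higher. Over all tested genes 18.3% were higher and 24.8% lower, and the counts are not read as a result about the list. Spi1, which encodes the myeloid factor PU.1, stood at 83.9, 105 and 83 against 8.8, 11 and 10.4 FPKM (3.05 ± 0.13, adjusted p = 2.1e-05), and Irf1, an interferon gamma target, at 212, 297 and 282 against 41.8, 43.5 and 44.8 FPKM (2.56 ± 0.14, adjusted p = 4.49e-05). Hif1a, the oxygen-regulated factor, rose by 1.44 ± 0.15, whereas its relative Epas1, which endothelium expresses, was lower (197, 99.9 and 183 against 318, 324 and 323 FPKM, -1.06 ± 0.25, adjusted p = 0.0157, and 0.0517 without normal replicate 3). Heat shock genes Hspa1a and Hsph1 fell by 1.94 (SE 0.15) and 1.45 (SE 0.15). Among basement membrane genes, nephronectin (Npnt) fell (35.5, 13.5 and 36.7 against 67.2, 90.6 and 128 FPKM, -1.78 ± 0.41, adjusted p = 0.0143). Of the platelet genes 5 of 14 were higher (35.7%) and 1 lower (7.14%), with a median change of 0.12. The counts were 4 and 1 without normal replicate 3. At 1 FPKM or more in all 6 libraries 3 of 11 were higher, against 18.3% over all tested genes. These counts are not read as a result about the list. Pf4 stood at 34.3, 30.3 and 31.9 against 20.01, 19.1 and 22.9 FPKM (0.62 ± 0.11, adjusted p = 0.00446).

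Some of the called genes lay next to each other. Runs of at least 4 neighbouring tested genes that were all called the same way and changed at least 2-fold were searched along the chromosomes, a search added after the data were seen. There were 32 runs of higher genes, holding 162 genes, and 4 runs of lower genes, holding 16. Over all tested genes 9.35% were called higher and 7.7% lower by at least 2-fold. The longest run lay at chr11:48861968-49135387 (GRCm38) and held 10 genes from Irgm1 to Ifi47, with changes between 1.37 and 4.38. A run of CC chemokine and Wfdc genes at chr11:83525778-83752642 held 7 genes with changes between 1.37 and 6.94. The Saa genes at chr7:46711998-46754313 formed a run of 4 with changes between 2.75 and 10.47. Runs of lower genes included the carboxylesterases at chr8:93166068-93337308 (-2.09 to -1.02) and the small proteoglycans Ecm2, Aspn, Omd and Ogn at chr13:49504810-49624501 (-1.52 to -1.24). Many runs hold families of close copies, where reads may be split between genes, and the part of this in the runs was not tested.

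Other promoter motifs also differed in frequency with the size of change, as descriptions of letters only. The PU.1 motif GAGGAAGT, searched on both strands, was in 13.1% of 464 windows of genes higher by at least 4-fold, 4.81% of those higher by less, 2.79% of those not called and 1.43% of 982 windows of genes lower by at least 2-fold, against 3.2% of all windows. The TATA box TATAAA was in 17.9%, 8.19%, 6.98% and 10.6% of the same groups and in 13.6% of all windows.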
